A study of Mus musculus with 30 samples.

Results

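Genomic positions listed as transposon insertion sites on both strands in the same mouse liver were examined in 30 livers. A position was taken when its chromosome and start were listed in the table of a liver once on the plus and once on the minus strand. This held for 31008 of 2150726 liver-position entries, of which 30016 of 1202282 were in piggyBac (PB) livers and 992 of 948444 in Sleeping Beauty (SB) livers. An entry is a position in a given liver, so a position found in 3 livers makes 3 entries. Both strands of a position are called a both-strand case, and the other entries are called single-strand.

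All livers came from Fah knockout mice (TT1 mice), which lack the last enzyme of tyrosine breakdown and model tyrosinemia type I. The 17 PB livers had received the therapy vector in the PB system and the 13 SB livers in the SB system. Genomic DNA came from whole livers collected when monitoring ended, and insertion sites were read by streptavidin-based enrichment sequencing (SBE-seq). Strain, sex, age, doses and times are not given in the labels, and no untreated liver was analysed here.

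PB and SB are cut-and-paste DNA transposons whose transposases join the transposon ends to short target sequences. PB inserts at TTAA and SB at TA, and both duplicate the target on insertion. These targets read the same on either strand, so a transposon can enter in either orientation at the same place. A liver lysed whole holds the insertions of a great many cells. In Fah knockout mice, hepatocytes that express the corrected gene have a growth advantage and repopulate the liver. Per the labels, the libraries were amplified from a transposon-specific and a linker-specific primer. The strand of a record is taken here to stand for the orientation of the transposon, which no label states. Records span 4 bp in PB and 2 bp in SB files.

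The number deposited with each site, taken here as the reads behind it and called its support, was at least 3 in all livers. PB livers held 16364 to 124238 records and SB livers 4893 to 120220. SB liver 13, with 4893 records, stood apart from the other SB livers in several measures below, and the ratios of observed to expected cases are given with and without it. No position and strand was listed more than once in the same liver. Between livers of a group, 1.23% to 7.83% of the records of the smaller PB liver and 0.0409% to 0.470% of those of the smaller SB liver recurred at the same position and strand. Nothing in the labels says that livers were processed together, and p-values measure the spread between livers.

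Both-strand cases made up 2.05% ± 0.954 of the positions of a PB liver (SD, n = 17) and 0.107% ± 0.0369 of those of an SB liver (SD, n = 13). In PB livers the number of cases had its lowest value at 87, its median at 1478 and its highest value at 4014. In SB livers the lowest was 10, the median 80 and the highest 160. PB livers 13 to 17, the smaller libraries, had 0.530% to 1.40%. No PB share lay within the range of the SB shares, 0.0573% to 0.205%.

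The first question was whether both strands met in the same liver as often as the livers' common use of positions would give. For each liver the expected number was taken from the rate at which its records coincided with opposite-strand records of the other livers of its group, multiplied by its own plus and minus record numbers. In PB, 30016 cases were observed and 29879 were expected. The ratio of observed to expected lay between 0.917 and 1.18 over the 17 livers, above 1 in 12 of them. The mean of the log2 ratio was 0.04 (1.03-fold), which did not pass a two-sided sign-flip permutation test over livers (adjusted p = 0.14 over 16 tests). PB livers 1 to 12 had 28865 cases observed and 28826 expected (1.00). PB livers 13 to 17 had 1151 observed and 1053 expected, a ratio of 1.09 with a counting interval of 1.03 to 1.16. Not all of these livers shared the excess. PB liver 13 was at 0.917, and the counting intervals of livers 13, 16 and 17 included 1. Those of livers 14 (1.04 to 1.33) and 15 (1.03 to 1.22) lay above 1. Taken instead from same-strand coincidences with other livers, the expected number was 1088, and 3 of these 5 livers were above 1. The mean PB ratio changed when positions shared by many livers were left out. Without positions held by 5 or more PB livers it was 1.24-fold, above 1 in 17 of 17 livers, and passed (log2 0.31, permutation test, adjusted p = 0.00019). A pair behind the expected number needs its position in more livers than a case does. This limit can therefore lower the expected number more than the cases, and its ratio cannot decide whether cases were in excess.

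In SB, 992 cases were observed and 884.2 were expected, a summed ratio of 1.12. The counting interval of that ratio was 1.05 to 1.19 (exact Poisson, 95%), which covers counting error only. The ratio was above 1 in 11 of 13 livers, with a median log2 ratio of 0.19. Its mean log2 ratio of 0.62 (1.53-fold) passed the test (sign-flip permutation, adjusted p = 0.0033) and owed most of its size to SB liver 13. Without that liver the mean was 0.21 (1.16-fold, above 1 in 10 of 12 livers, permutation test, adjusted p = 0.0061). The excess depended on the kind of coincidence used. Between PB livers there were 395443 same-strand and 384007 opposite-strand coincidences, and between SB livers 10889 and 9051. With same-strand coincidences as the base, 1057 SB cases were expected, the median ratio was 0.973 and the call was lost (permutation test, adjusted p = 0.82). The mean log2 ratio on that base was 0.31 with SB liver 13 and -0.05 without it (permutation test, adjusted p = 0.58 without it).

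SB livers differed among themselves in this ratio. SB liver 5 had 80 cases against 50.7 expected, a ratio of 1.58 with a counting interval of 1.25 to 1.96. SB livers 1 to 6 together had 426 cases against 342.5 expected (1.24-fold), each liver between 1.12 and 1.58. SB livers 7 to 12 had 556 against 541.5 (1.03-fold), each between 0.989 and 1.14. With same-strand coincidences as the base the ratios were lower. They then ran from 0.973 to 1.30 in SB livers 1 to 6, with liver 5 the highest, and from 0.789 to 0.911 in SB livers 7 to 12. This division by liver number was seen in the values and was not tested. The share of positions on the X chromosome divided the same way, at 2.26% to 2.59% in SB livers 1 to 6 and 3.81% to 4.24% in SB livers 7 to 12, and its part in the ratio was not tested. PB livers 1 to 6 had 2.24% to 2.31% of their positions on the X chromosome and PB livers 7 to 12 had 3.56% to 3.71%. The difference between PB and SB in the log2 ratio was -0.58 (permutation test of livers, adjusted p = 0.003). It was -0.18 without SB liver 13 (adjusted p = 0.0064), and with same-strand coincidences as the base it did not pass (permutation test, adjusted p = 0.68). Nor did it pass without positions held by 5 or more livers (-0.31, permutation test, adjusted p = 0.72). In both of these settings the sign turned when SB liver 13 was left out as well, to 0.04 on the same-strand base and 0.09 without the shared positions (permutation tests, adjusted p = 0.58 and 0.15). Leaving out the shared positions can lower the expected number more than the cases, as described for PB above, so that setting cannot decide about this difference. The expected number of a liver is drawn from the other livers of its group, so values within a group depend on each other and these p-values do not rest on independent livers.

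SB liver 13 carried 10 both-strand cases where 0.230 were expected, 43.6 times as many, with a counting interval of 20.9 to 80.1. That interval takes the expected number as exact. With same-strand coincidences as the base, 0.393 were expected, a ratio of 25.4. The 10 cases were 0.205% of its positions (exact binomial interval 0.0982% to 0.376%), the highest share among SB livers although this library was the smallest. The cases lay on 8 chromosomes, with a pair each on chromosome 2, at 86146517 and 99118391, and on chromosome 5, at 73553088 and 145596413. Their weaker strand had a support of 22 to 125, against a median support of 87 for all records of the liver. None of these 10 positions was held by another SB liver, which allows a share of up to 30%.

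**Figure D1:**
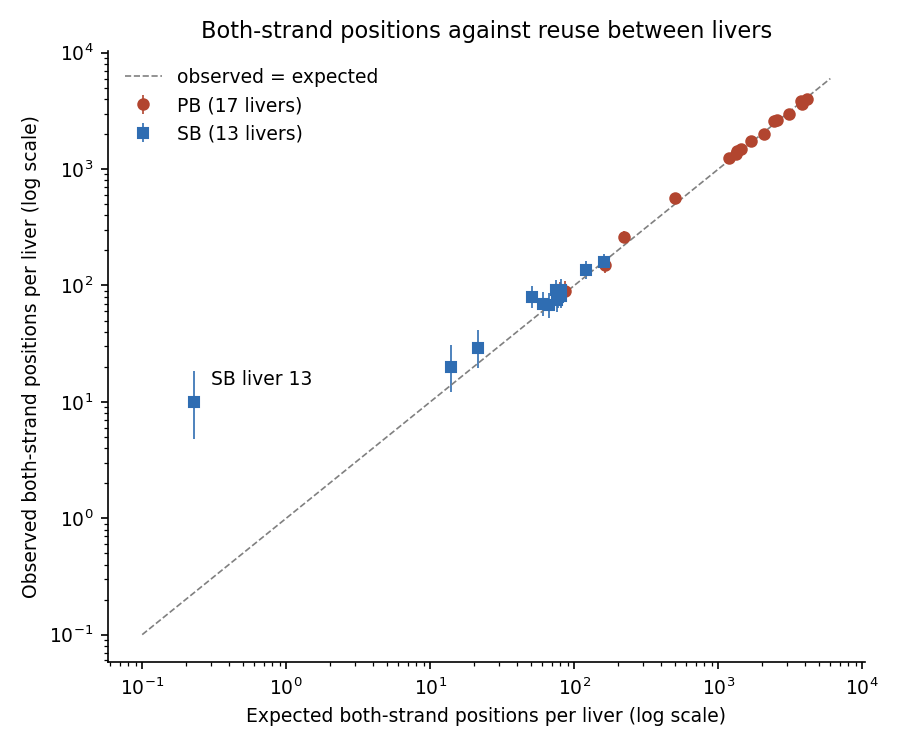
Observed against expected both-strand positions per liver, both axes on a log scale, for 17 PB and 13 SB livers, with exact Poisson 95% intervals as bars. PB livers follow the dashed line of equality, and SB liver 13 stands above it with 10 observed against 0.230 expected.

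An equal start is the rule by which cases were chosen, and opposite-strand pairs at other distances were counted beside them. Within PB livers 30016 opposite-strand pairs had the same start, against 231 pairs with the plus record 1 bp before the minus record and 433 with it 1 bp after. At distances of 2 to 30 bp, each offset held between 28 and 136 PB pairs. In SB livers 992 pairs had the same start, 1 pair lay 1 bp apart, and offsets of 2 to 30 bp held 6 to 187 pairs. SB pairs at even distances outnumbered those at odd distances 4.28-fold (1661 against 388), whereas in PB the numbers were 2391 and 2636. The most frequent SB offset after 0 was 4 bp, with 187 pairs when the plus record came second and 181 when it came first.

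Records close together behaved differently on the same strand. Opposite-strand PB pairs 1 bp apart numbered 664, against 643.3 expected from other livers, and those 2 to 10 bp apart 1270 against 1234. Same-strand PB pairs 1 bp apart numbered 19835 against 789.6 expected (25.1-fold), and those 2 to 10 bp apart 20911 against 1662 (12.6-fold). In SB the same-strand pairs 2 to 10 bp apart were 22408 against 1282 expected (17.5-fold), while the opposite-strand pairs were 1027 against 990.9. The excess of near neighbours was thus seen on the same strand, in numbers far above those between livers, and opposite-strand pairs did not share it. Leaving out every record within 10 bp of a better supported one on its strand removed 1.82% of PB and 1.73% of SB records. The mean ratio of observed to expected cases was then 1.03-fold in PB and 1.52-fold in SB, the SB value being 1.14-fold without SB liver 13.

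**Figure D2:**
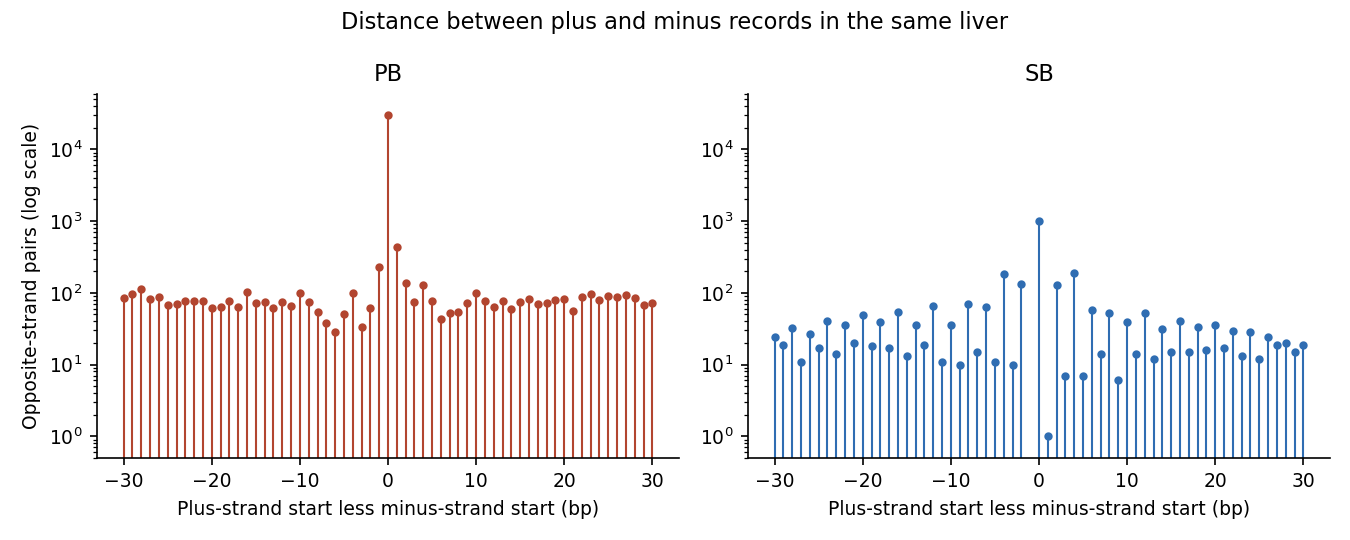
Number of opposite-strand pairs within a liver (log scale) by the distance in bp from the minus-strand start to the plus-strand start, summed over PB livers and over SB livers. The tallest line stands at 0 in both panels, with 30016 PB and 992 SB pairs, and SB lines alternate between even and odd distances (the offset with 0 pairs, at -1 in SB, is not drawn).

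Support was then compared, first between both-strand and single-strand records. In PB livers the median support of both-strand records was 18, 74 and 160 (lowest, median and highest liver), against 17, 68 and 159.5 for single-strand records. Both-strand records had the higher median in 17 of 17 PB livers, by 1.07-fold on average (log2 0.09 ± 0.05, SD, n = 17, sign-flip permutation test, adjusted p = 9.6e-05). In SB livers the mean log2 ratio was -0.01 ± 0.16 (SD, n = 13, adjusted p = 0.82, permutation test), with both-strand records higher in 8 of 13. The difference between PB and SB was 0.10 on the log2 scale (permutation test, adjusted p = 0.02). It did not pass without positions held by 5 or more livers (0.05, permutation test, adjusted p = 0.29). PB single-strand records whose opposite strand occurred in another liver were better supported than single-strand records overall in 16 of 17 livers, by a mean log2 of 0.06. Both-strand records were in turn better supported than those records in 13 of 17 livers, by a mean log2 of 0.03. The 13 included all of PB livers 1 to 12, while PB livers 13, 14, 16 and 17 were at or below 0. The records with their opposite strand in another liver are a subset of the single-strand records, and both comparisons are given as a description.

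The strands of a case were about as far apart in support as records of different livers. In PB the median case had a support of 64 on its stronger and 32 on its weaker strand, taking the medians over all cases, and in SB 62 and 31. Within a PB liver the strands of a case differed by a median of 1.67-fold (range over livers 1.42 to 1.85). Opposite-strand records of the same position in different livers, each divided by the median support of its liver, differed by 1.68-fold (1.61 to 1.74). The difference of the log2 gaps was -0.01 ± 0.07 in PB and -0.02 ± 0.18 in SB (SD, n = 17 and 13), and neither passed (sign-flip permutation tests, adjusted p = 0.67 and 0.69). Across the cases of a liver, Spearman's rho between plus and minus support ran from -0.15 to 0.08 in PB livers and from -0.13 to 0.39 in SB livers. Between livers it lay between -0.01 and 0.04 in PB, and between -0.05 and 0.07 in SB. Cases of a liver share a library and its depth, so these are descriptions.

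Few cases paired a strong strand with a trace. The stronger strand exceeded the weaker more than 10-fold in 1088 PB cases (3.62%) and 60 SB cases (6.05%). The strands were within 2-fold in 60.5% and 55.0%. As a mean over livers, the share above 10-fold was 4.88% in PB and 6.36% in SB. Among opposite-strand records of the same position in different livers it was 4.51% and 6.003%. The low share is thus not shown to be particular to the cases. The weaker strand was at the lowest support listed, 3, in 1.52% of PB and 3.43% of SB cases, while 1.93% of PB and 2.17% of SB single-strand records were at 3. The plus strand had the higher support in 47.3% of PB and 48.5% of SB cases, and the minus strand in 51.2% and 50.7%. Cases led by the minus strand outnumbered those led by the plus strand in 14 of 17 PB livers, among them all of PB livers 1 to 12, and in 7 of 13 SB livers. The PB margin was small, with the minus strand ahead in 49.8% to 54.0% of the cases of PB livers 1 to 12. Among all PB records, minus records also outnumbered plus records, 626887 against 605411. Support by strand is not given here for single-strand records, so the lead is not shown to be particular to the cases.

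The 3 PB cases with the highest support on the weaker strand were chosen by that value. The first, on chromosome 13 from 4099350 to 4099353 (GRCm39), had a plus support of 337 and a minus support of 421 in PB liver 3, whose median was 75. The second, on chromosome 10 from 95672627 to 95672630, had 293 and 367 in PB liver 17, and the third, on chromosome 15 from 10378786 to 10378789, had 271 and 358 in PB liver 1. These 3 positions were held by 11, 4 and 17 of 17 PB livers. In SB the corresponding cases were on chromosome 8 from 72977809 to 72977810 (194 plus and 248 minus, liver 4), on chromosome 9 from 69236697 to 69236698 (130 and 132, liver 5) and on chromosome 5 from 73553088 to 73553089 (184 and 125, liver 13). Each of these SB positions was held by a single liver.

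Recurrence in other livers was not used to choose the cases. In PB, 26465 of 30016 cases (88.2%) lay at a position held by another PB liver on either strand, against 35.9% of single-strand entries. A both-strand position was held by 30.5% ± 2.87 of the other PB livers on average and a single-strand position by 6.38% ± 0.929 (SD, n = 17). The ratio was 4.80-fold and above 1 in 17 of 17 livers (sign-flip permutation test, adjusted p = 9.6e-05). In SB, 97 of 992 cases (9.78%) were held by another SB liver, against 3.83% of single-strand entries. Both-strand positions were held by 0.946% ± 0.560 of the other SB livers and single-strand positions by 0.356% ± 0.0248 (SD, n = 13). The mean log2 ratio was 1.36 (2.56-fold) over the 12 SB livers with a recurring case, above 0 in 11 of them (permutation test, adjusted p = 0.003). SB liver 13, at 0, has no log2 ratio. The log2 ratio was 0.91 higher in PB than in SB (permutation test, adjusted p = 9.6e-05). A liver's recurrence counts the same coincidences as its partners' recurrence, so these values are not independent.

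A both-strand case takes 2 records at a position, and a closer comparison is a position with opposite strands in 2 different livers. Either of those livers may also hold its other strand there, so both-strand positions enter this comparison too. Cases were looked up in all other livers of the group, and pairs in the livers left after both of the pair. The 2 shares are therefore not fully like for like. Such positions were held by 29.7% ± 1.70 of the remaining PB livers (SD, n = 17), close to the 30.5% of both-strand cases. The ratio was 1.02-fold and passed over 17 livers (log2 0.03, above 0 in 12, permutation test, adjusted p = 0.035). In livers 1 to 12 alone it was 1.00-fold and did not pass (permutation test, adjusted p = 0.64). In PB livers 13 to 17 the shares were 34.2% ± 1.60 for both-strand cases and 32.0% ± 0.733 for the pairs (SD, n = 5). In SB the shares were 0.946% and 1.18% ± 0.287 (SD, n = 13). The mean log2 ratio of -0.29 ± 0.75 (SD, n = 12) did not pass (permutation test, adjusted p = 0.26).

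**Figure D3:**
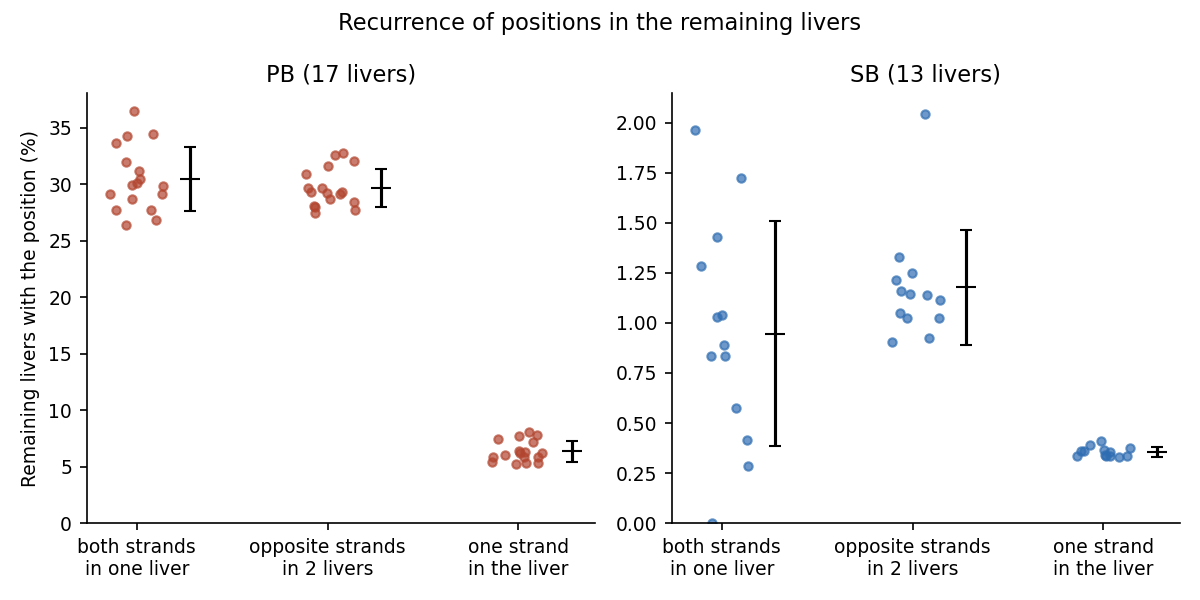
Share of the remaining livers of the group that hold a position, in percent, for both-strand cases, for positions with opposite strands in 2 livers and for single-strand positions, with 1 point per liver and the mean ± SD beside the points. In PB the first 2 columns lie together near 30% and the third near 6%, and in SB the both-strand values scatter from 0 to 1.96%.

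The share of entries with both strands rose with the number of other livers that held the position. In PB it was 0.470% of entries held by no other liver, 1.88% with 1 other liver, 10.2% with 5, 25.1% with 10 and 43.8% with 14. The last of these shares, from 315 entries, had an exact binomial interval of 38.3% to 49.5%. At 15 and 16 other livers it was 41.1% and 41.2%, with intervals that overlap it. In SB it was 0.0981% with no other liver, 0.234% with 1 and 0.697% with 2 (interval 0.361% to 1.21%). With 3 or more other SB livers there were 280 entries or fewer at each number, and the intervals were wide.

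**Figure D4:**
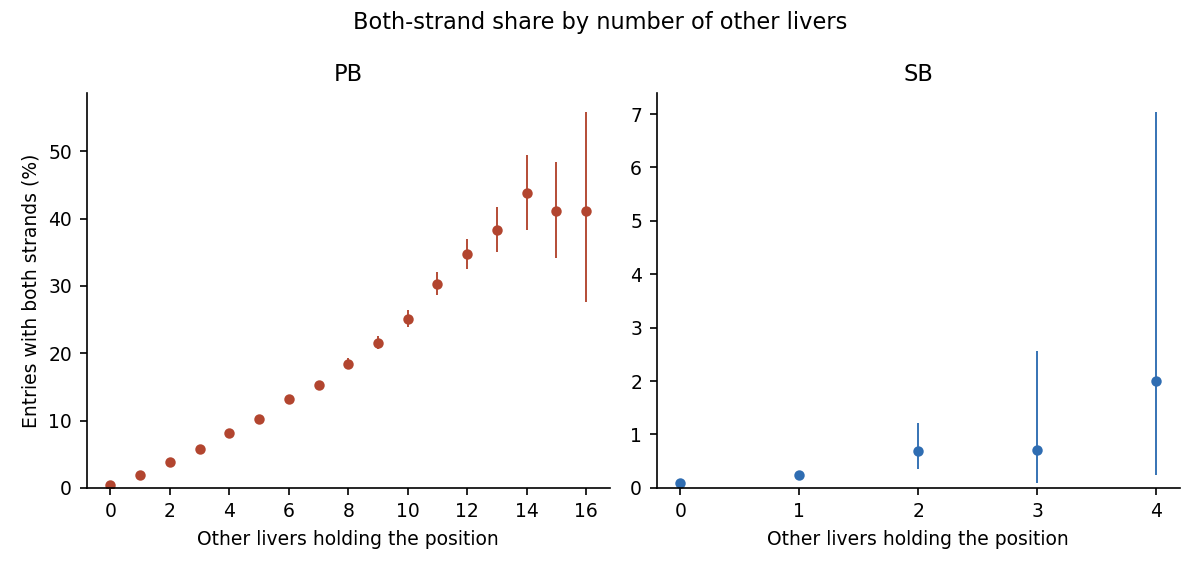
Percent of liver-position entries that carry both strands, by the number of other livers of the group holding the position, with exact binomial 95% intervals as bars (numbers with fewer than 50 entries are not drawn). The PB share climbs from 0.470% to 43.8% at 14 other livers, and the SB share stays at or below 2.00%.

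Counted as positions, the PB cases fell on 22285 sites. Of these, 17762 (79.7%) had both strands in a single liver, 4523 in 2 or more, 358 in 5 or more and 9 in 10 or more, with a maximum of 13 livers. A further 80352 PB positions had both strands only when livers were combined. The 992 SB cases fell on 992 positions, none of which had both strands in a second liver, which allows a share of up to 0.302%. Another 8482 SB positions had both strands only across livers. Among the 3508 PB cases held by exactly 1 other liver, that liver had the plus strand alone in 48.6%, the minus strand alone in 47.4% and both in 3.93%. Among the 80 such SB cases it had the plus strand in 42, the minus strand in 38 and both in 0.

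The 6 PB positions with both strands in most livers were on 6 chromosomes. The position on chromosome 14 from 20723889 to 20723892 had both strands in 13 of the 16 livers that held it. Its plus support ran from 3 through a median of 101 to 222, and its minus support from 26 through 107 to 264. The trace of 3 was in PB liver 17, where the minus strand had 148, and the minus strand was absent in PB livers 14, 15 and 16.

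The position on chromosome 6 from 71170423 to 71170426 was held by 13 livers and had both strands in all 13. Its plus support was 45, 136 and 422 (lowest, median, highest), and its minus support 25, 128 and 368. It was the single position of the 6 with no single-strand entry. The position on chromosome 15 named above had both strands in 11 of 17 livers, with 14 records on each strand.

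The remaining 3 also had both strands in 11 livers. On chromosome 1 from 88213525 to 88213528 the plus strand was the better supported, with a median of 278 over 12 records against 126 over 15 minus records. On chromosome 3 from 97725830 to 97725833 the medians were 153 plus and 95 minus over 13 records each. On chromosome 5 from 151293165 to 151293168 they were 79 and 75 over 13 plus and 11 minus records. At all 6 positions the livers without both strands included some of PB livers 13 to 17, the smaller libraries.

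**Figure D5:**
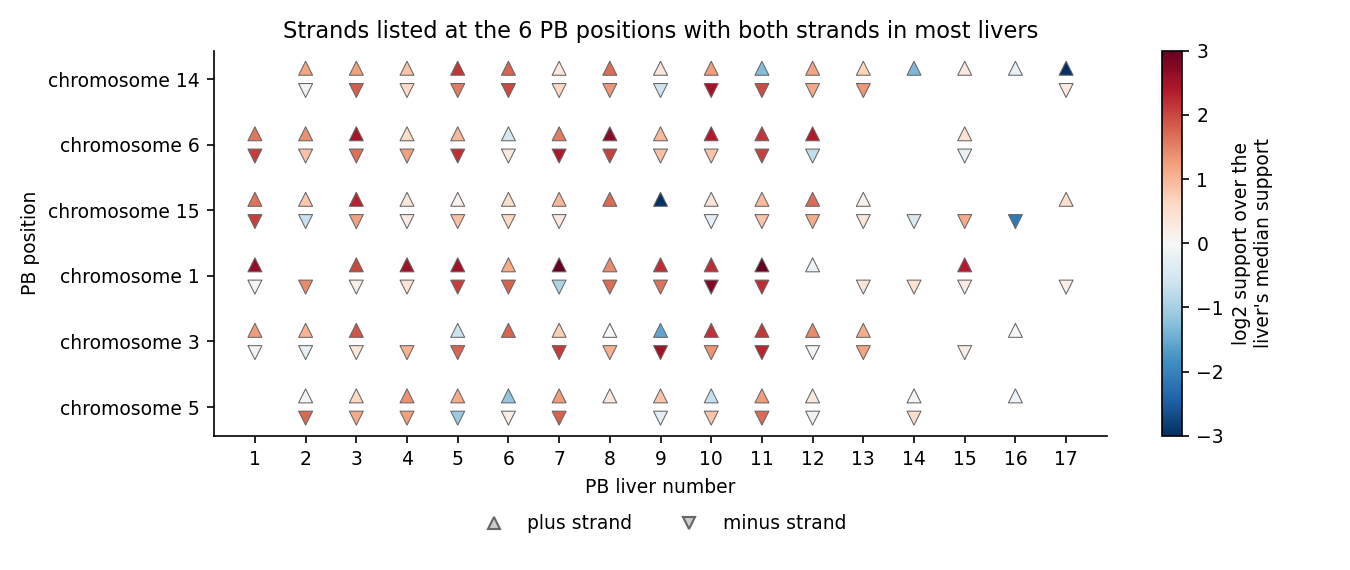
Plus records (upward triangles) and minus records (downward triangles) at the 6 PB positions with both strands in most livers, by PB liver number, coloured by log2 of support over the median support of the liver. Most of livers 1 to 12 carry both triangles in each row, and the row of chromosome 6 has both in each of its 13 livers.

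In SB no position had both strands in more than 1 liver, so the 6 to be named were those held by most livers. The first 5 lay close together on chromosome 11. The position from 3091320 to 3091321 was held by 8 livers, with 7 plus and 2 minus records. SB liver 7 had both strands (16 plus and 62 minus), and the other minus record was in SB liver 11. The positions from 3136709 and from 3091733 were held by 5 livers each, with 3 records on each strand, and those from 3118455 and from 3081536 by 4 each. The sixth, on chromosome 9 from 107524267 to 107524268, was held by 3 livers and had both strands in SB liver 1 (58 plus and 77 minus). In the window of chromosome 11 from 3 to 4 Mb, 15 of 1334 SB entries (1.12%) and 56 of 1121 PB entries (5.00%) were both-strand, and 11 of the 15 SB cases were held by another liver. Outside it, 86 of 977 SB cases (8.80%) were held by another liver.

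Both-strand cases lay where other insertions were dense. Around a PB case, the other PB livers had 31.8 ± 2.33 records within 5 kb, the position itself left out, against 16.6 ± 1.03 around a single-strand position (SD, n = 17). The ratio was 1.92-fold and above 1 in 17 of 17 livers (sign-flip permutation test, adjusted p = 9.6e-05). In SB livers the numbers were 7.28 ± 1.42 and 4.99 ± 0.179 (SD, n = 13), a ratio of 1.44-fold, above 1 in 13 of 13 (permutation test, adjusted p = 0.00064). Without the chromosome 11 window the SB ratio was 1.23-fold. The PB log2 ratio exceeded the SB one by 0.42 (permutation test, adjusted p = 9.6e-05), but within 50 kb the difference was 0.07 and did not pass (permutation test, adjusted p = 0.22). PB single-strand positions with the opposite strand in another liver had 27.6 ± 1.29 such neighbours (SD, n = 17), fewer than both-strand cases in 17 of 17 livers, as a description. Such a position counted once if any other liver had the opposite strand, whereas a case needs both in the same liver. The 2 sets are thus chosen unlike.

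Over the autosomes, the both-strand share of PB entries varied little, from 2.32% on chromosome 12 to 2.74% on chromosome 5. In SB it varied from 0.0597% on chromosome 14 to 0.140% on chromosome 11. The X chromosome was low in both systems. It carried 319 PB cases, 0.867% of its PB entries, against 2.55% of the entries of all other chromosomes. With the expected number computed on the X chromosome alone, 318.3 PB cases were expected, a ratio of 1.00. In SB it carried 5 cases (0.0158% of X entries against 0.108% elsewhere), where 9.68 were expected. The counting interval of that ratio, 0.168 to 1.21, includes 1. SB livers 1 to 6 had 3 of these cases against 2.40 expected, and SB livers 7 to 12 had 2 against 7.27 expected, a ratio of 0.275 with an interval of 0.0333 to 0.993. That interval takes the expected number as exact. The division by liver number was seen in the values and was not tested.

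A TTAA target contains a TA, so a PB position and an SB position can be the same place. Of the 22285 PB both-strand positions, 57 (0.256%, exact binomial interval 0.194% to 0.331%) had an SB record at the enclosed 2 bp. Of PB positions never found with both strands, 2054 (0.232%, interval 0.222% to 0.242%) did, and the intervals overlap. Of the 992 SB both-strand positions, 1 lay inside a PB position (0.101%, interval 0.00255% to 0.560%), against 0.227% of SB positions never found with both strands.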

How the data were processed

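SBE-seq libraries of 17 PB and 13 SB livers were analysed from the tables the authors deposited for each liver. Per the labels' protocols, DNA was fragmented enzymatically, linker-ligated, size-selected and amplified by nested PCR. Per the submitters' processing notes, cutadapt, BWA and GRCm39 were used, without versions. Beside coordinates, the deposited tables hold a strand sign with a whole-number score (support) whose unit is not given in the sources used here. The deposited merged tables were not used. Coordinates are 1-based GRCm39. The gene table at hand describes another build, so no gene was assigned.

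Cases were found by equal chromosome and start. Per-liver measures and two-sided permutation tests (100000 resamples) were computed in Python 3.11.15 (scipy 1.17.1, numpy 2.4.6, pandas 2.3.3). Sign flips served within a group and exchange of livers between groups. Each liver had at least the 10 cases required. The Benjamini-Hochberg adjustment covered 16 tests with a threshold of 0.05. The smallest p the resamples can give is 1e-05. The calculation was tested on simulated livers. Named positions are the 6 per group with both strands in most livers, with ties broken by livers holding the position, and the 3 cases per group with the best supported weaker strand. The cases, measures and lists were chosen with earlier results of these data known. The labels name no molecular identifiers, and PCR copies are not independent, so intervals cover counting error only.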

Additional observations from a re-analysis of the deposited data

Results flagged for a closer look

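The log2 ratio of observed to expected both-strand cases differed between PB and SB livers by -0.58 (permutation test of livers, adjusted p = 0.003), SB being higher, and it was -0.18 without SB liver 13. It did not pass with same-strand coincidences as the base (-0.32) or without positions held by 5 or more livers (-0.31), and without SB liver 13 the sign turned in both (0.04 and 0.09). Leaving out positions held by 5 or more livers can lower the expected number more than the cases, so that setting cannot decide here. The log2 ratio of both-strand to single-strand support differed by 0.10 (permutation test, adjusted p = 0.02), higher in PB, and did not pass without positions held by 5 or more livers. The log2 ratio of recurrence in other livers, both-strand over single-strand, differed by 0.91 (permutation test, adjusted p = 9.6e-05), higher in PB. The log2 ratio of neighbouring records within 5 kb, both-strand over single-strand, differed by 0.42 (permutation test, adjusted p = 9.6e-05), higher in PB, and did not pass within 50 kb. Each stands here because the difference between the vector systems itself passed its test.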

How the results depend on the processing

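Of 137 recomputed values under the alternatives, 122 had the direction of the main value and lay on the same side of the threshold. All values here are mean log2 ratios or their differences. With same-strand coincidences as the base of the expected number, observed over expected cases came to -0.0078 in PB (main value 0.04), 0.31 in SB and -0.32 for PB against SB, none of them past the threshold. Leaving out SB liver 13 as well gave -0.052 in SB and 0.044 for PB against SB. Without positions held by 5 or more livers the PB value was 0.31 and passed. The PB against SB differences were then -0.31 for observed over expected and 0.052 for support, neither passing, and the first was 0.095 with SB liver 13 left out as well. This limit can remove more of the pairs behind the expected number than of the cases, so its observed over expected values decide nothing. With a support of at least 10 and SB liver 13 left out, PB against SB was -0.138 and lost its call. The gap between strands, which passed in no setting, changed sign in livers 1 to 12 (0.00081 in PB, 0.0033 in SB) and, in SB, without liver 13 (0.0033). In livers 1 to 12 the PB recurrence over opposite-strand pairs was 0.0062 and lost its call. Within 50 kb the PB against SB difference in neighbours was 0.072 and lost its call. For none of these changes was the cause tested.

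Leaving out records near a better supported one, summing the expected number by chromosome and taking recurrence in percentage points, and leaving out SB liver 13 together with another setting, were added after the data were seen. In percentage points, which keeps SB liver 13, recurrence of both-strand over single-strand positions differed by 24.1 in PB and 0.590 in SB. The liver numbers are shared by 13 pairs, of which 0 correlated above 0.1 in their deviations over 1 Mb windows (range -0.05 to 0.07), and the numbering is not treated as a pairing. Under the replicate block, PB against SB differences were -0.61 for observed over expected, 0.12 for support, 0.95 for recurrence and 0.41 for neighbours, and no call changed. Without SB liver 13 the first was -0.20 under the block. Few cases per liver limit the SB values: SB livers 2, 4 and 13 had 29, 20 and 10.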
